A study of Mus musculus with 6 samples.

Results

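Glycolysis and the response to low oxygen were followed through 33 mouse genes, read by symbol from the deposited single-cell count tables of injured Achilles tendon. They were 33 of the 33696 genes in those tables, named by symbol for their function, with earlier results of these data known, and they filled 34 table rows because Aldoa was listed under 2 gene identifiers, the second with 2 to 6 UMIs per library in the cells analysed. All 33 were detected. UMIs are unique molecular identifiers, so that 1 UMI stands for 1 captured transcript, and levels are given as CPM, the UMIs of a gene per 1000000 UMIs of the cells named. The tables count the 3′ ends of transcripts. Levels of different genes are summed, or given as shares of a sum, but are not otherwise set against each other here.

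The study asked how cells of the Gli1 lineage take part in the ectopic bone that forms after tendon injury, and sorted tendon cells by a reporter before single-cell sequencing. All 24 mice, males and females, were Gli1-CreERT2; Ai9 animals given tamoxifen ahead of surgery, so that the Gli1 promoter drove the recombinase and the reporter marked Gli1-expressing cells together with their later progeny. The labels give 8 mice for each time point, uninjured or at 7 or 21 days after Achilles tenotomy (dpi), and 1 Gli1+ and 1 Gli1- sorted sample, in all 6 libraries with 1 library per condition. How many of the mice entered each library is not given in the sources used here, and the 2 sorts of a time point may share animals, so that a change seen in both sorts is not seen in 2 independent samples. The age of the mice was not given in the sources used here. With 1 library per condition there was no replicate and no test between conditions. The 95% intervals printed are exact Poisson or binomial intervals and cover counting error only, not the spread between mice. Male and female mice entered the study in equal number, but the cells of a library were not mixed in that way. Of the cells with a Pdgfra transcript, 72.1 to 77.5% had a Y-linked UMI and no Xist UMI in the Gli1- uninjured library and in both 7 dpi libraries, 94.4 and 94.9% had Xist and no Y-linked UMI in the 21 dpi libraries, and the Gli1+ uninjured library held both kinds, with 63.6% Xist only and 23.1% Y only. The 2 uninjured libraries therefore do not look like sorts of 1 mixed pool of mice. Sex and time therefore cannot be told apart in the Gli1- comparison of 21 dpi with uninjured cells, nor in the comparison of 21 with 7 dpi in either sort.

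Each library held 7057 to 10882 cells after filtering, with a median of 4297 to 9775 UMIs per cell, and pairs of libraries shared 27 to 75 barcodes, at most 0.534% of the smaller library. The cells examined first were those with 1 or more Pdgfra UMIs, called Pdgfra cells. There were 1774, 4790 and 5255 of them in the Gli1+ libraries at uninjured, 7 dpi and 21 dpi, and 5108, 6581 and 5529 in the Gli1- libraries. Their 6 mesenchymal markers summed to between 25797 and 37297 CPM. Gli1 itself was at 15.0 CPM in Gli1+ and 8.95 CPM in Gli1- Pdgfra cells when uninjured, but after injury it was no higher in the Gli1+ cells, at 1.91 against 2.5 CPM at 7 dpi and 3.71 against 4.12 CPM at 21 dpi, and the sort rests on the reporter. The Gli1+ 7 dpi library stood apart, since its Pdgfra cells carried 3506 CPM of 6 epidermal markers, against 28.6 to 515 CPM in the other libraries. Of its 4790 Pdgfra cells 4788 had UMIs of 2 or more markers of some other cell type, against 23.3 to 45.3% in the other libraries. The Gli1- 7 dpi library, with 79.7 CPM of the epidermal markers and 31.5% of such cells, is given beside it throughout. Of the cells in the Gli1+ uninjured library 2866 were T cell-like and 1774 were Pdgfra cells.

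Glycolysis splits glucose into pyruvate in the cytosol. Glucose enters through transporters of the Slc2a family, hexokinase and phosphofructokinase commit it to the pathway, and the lower steps from Gapdh to Pkm yield ATP. Lactate dehydrogenase then turns pyruvate into lactate, which leaves the cell through transporters of the Slc16a family. When oxygen is short, the alpha subunits Hif1a and Epas1 (HIF-2 alpha) escape the prolyl hydroxylases of the Egln family, are stabilised as proteins and raise the transcription of many of these genes. Cartilage lacks blood vessels, and its cells are known to rely on HIF-1 and on glycolysis. Transcript levels do not measure the flow through the pathway or the amount of HIF protein.

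HIF binds a short core, ACGTG or GCGTG. Promoters are shown for 6 members that took different courses in these cells: Ldha and Slc16a3, higher after injury in both sorts, Pfkp and Adm, lower after injury in both sorts, and Bnip3 and Ankrd37, higher in cells rich in Col2a1 transcripts. They are from RefSeq in build GRCm38.p6, 250 bases before to 50 bases after the first listed start of the gene, 5′ to 3′ on the strand of the gene, and the capitals mark each match to ACGTG or GCGTG on either strand (CACGT and CACGC when read on the other strand, so that CACGTG holds 2 overlapping matches).
Ldha, chr7:46845554-46845853, plus strand: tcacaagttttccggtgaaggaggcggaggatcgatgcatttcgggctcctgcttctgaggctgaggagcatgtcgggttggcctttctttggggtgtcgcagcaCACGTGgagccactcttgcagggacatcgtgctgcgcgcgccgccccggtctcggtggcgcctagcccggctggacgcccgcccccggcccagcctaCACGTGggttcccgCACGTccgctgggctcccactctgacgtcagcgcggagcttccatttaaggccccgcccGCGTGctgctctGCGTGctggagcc
Slc16a3, chr11:120948817-120949116, plus strand: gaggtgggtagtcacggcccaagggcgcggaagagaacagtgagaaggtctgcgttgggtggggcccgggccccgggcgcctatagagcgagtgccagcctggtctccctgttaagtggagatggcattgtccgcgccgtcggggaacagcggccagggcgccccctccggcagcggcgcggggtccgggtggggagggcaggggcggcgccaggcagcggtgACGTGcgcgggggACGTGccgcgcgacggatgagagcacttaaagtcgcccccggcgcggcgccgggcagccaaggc
Pfkp, chr13:6648722-6649021, minus strand: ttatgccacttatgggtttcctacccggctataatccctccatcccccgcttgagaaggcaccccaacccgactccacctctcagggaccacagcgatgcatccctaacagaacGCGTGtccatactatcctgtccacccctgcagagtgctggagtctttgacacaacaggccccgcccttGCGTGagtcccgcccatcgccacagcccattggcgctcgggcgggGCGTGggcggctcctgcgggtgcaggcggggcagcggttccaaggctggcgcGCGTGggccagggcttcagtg
Bnip3, chr7:138909457-138909756, minus strand: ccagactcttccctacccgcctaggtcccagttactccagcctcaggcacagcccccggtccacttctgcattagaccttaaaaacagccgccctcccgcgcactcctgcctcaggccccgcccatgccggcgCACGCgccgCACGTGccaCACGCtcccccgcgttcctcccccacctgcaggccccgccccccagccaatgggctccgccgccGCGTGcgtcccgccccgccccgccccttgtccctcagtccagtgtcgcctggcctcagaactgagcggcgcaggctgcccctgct
Ankrd37, chr8:45999801-46000100, minus strand: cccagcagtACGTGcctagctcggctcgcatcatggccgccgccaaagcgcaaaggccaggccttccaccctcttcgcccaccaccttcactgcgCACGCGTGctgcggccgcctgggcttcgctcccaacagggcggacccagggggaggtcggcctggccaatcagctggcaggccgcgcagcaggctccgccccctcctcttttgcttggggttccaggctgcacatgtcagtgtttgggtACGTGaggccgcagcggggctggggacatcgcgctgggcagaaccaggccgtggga
Adm, chr7:110627407-110627706, plus strand: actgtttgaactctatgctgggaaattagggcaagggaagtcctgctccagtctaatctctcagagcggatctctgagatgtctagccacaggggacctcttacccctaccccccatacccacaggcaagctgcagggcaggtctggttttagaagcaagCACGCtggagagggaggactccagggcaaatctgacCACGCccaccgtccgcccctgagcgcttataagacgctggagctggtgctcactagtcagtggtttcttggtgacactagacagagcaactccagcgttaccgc

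Of the 33 members 30 had a promoter in the table, and Slc2a3, Epas1 and Ndrg1 had none. At least 1 match stood at 1 or more listed starts of 27 of those 30 genes (90%), and 2 or more matches at 21 of them (70.0%). Over all 27025 genes of the table the shares were 46.7 and 22.9%, and over the 14415 of them detected in Pdgfra cells 61.5 and 33.3%. A match to 5 letters is a description of the sequence, not a bound site.

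In Pdgfra cells the summed transcripts of the glycolytic enzymes were higher after injury in both sorts, while single enzymes of the upper part, Hk2 and Pfkp among them, were lower. Summed over 17 enzymes from Hk1 to Ldhb, Gli1+ cells had 1578 CPM when uninjured, 3598 at 7 dpi and 2839 at 21 dpi. Gli1- cells had 1670.05, 3614 and 2935 CPM. The log2 ratio of 7 dpi to uninjured was 1.19 (95% interval 1.17 to 1.21) for the Gli1+ sort, with 1.11 (1.10 to 1.13) for Gli1-, and that of 21 dpi to uninjured was 0.85 (0.83 to 0.87) and 0.81 (0.80 to 0.83). The uninjured libraries were the lowest of their sort and the 7 dpi libraries the highest, and at each time point the 2 sorts lay close together in CPM, with log2 ratios of Gli1+ to Gli1- between -0.08 and -0.01. The TMM scaling described below adds -0.26 to the uninjured ratio of the sorts. It adds -0.05 at 7 dpi and 0.01 at 21 dpi. The 21 dpi ratio is the smaller and the less stable. With each cell thinned to 2000 UMIs it was 0.53 in Gli1+ and 0.40 in Gli1- cells, below the 0.58 used here as the limit of a change, and as a mean over cells it was 0.56 in Gli1- cells. The thinned ratios do not cover the same cells as the Pdgfra gate on full counts. Those cells, thinned, had means of 3.05 and 4.61 enzyme UMIs per cell in Gli1+ (uninjured and 21 dpi), with 3.25 and 4.8 in Gli1-.

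A gene was counted as changed where its log2 ratio passed 0.58 in either direction, the fold limit of the study's methods, with 20 or more UMIs over the 2 sets of cells. All 33 members could be counted in each comparison with uninjured cells. In Gli1+ cells at 7 dpi 14 members rose and 10 fell, against 22.8% of all counted genes higher and 34.2% lower. At 21 dpi 13 rose and 7 fell in Gli1+ cells, with 15.6% of all genes higher and 37.8% lower. In Gli1- cells at 7 dpi 15 rose and 9 fell, with 24.4% of all genes higher and 28.3% lower. Among these falls, those of Pfkfb3, Pfkfb4 and Ldhb did not pass the limit in thinned cells. At 21 dpi 16 rose and 4 fell in Gli1- cells, with 22.0% of all genes higher and 29.1% lower. The share of members that rose was thus above that of all genes in each comparison, and the share that fell was close to it at 7 dpi and below it at 21 dpi. Of the 17 enzymes 10 rose and 3 fell at 7 dpi in each sort, and 9 rose and 2 fell at 21 dpi. The median log2 ratio of the members was 0.24, 0.29, 0.31 and 0.43 in that order, beside -0.18, -0.34, -0.08 and -0.12 over all counted genes.

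The scaling of the libraries moves these counts. Scaling by TMM, a trimmed mean of gene ratios, added 0.32 and 0.42 to the Gli1+ log2 ratios at 7 and 21 dpi and 0.10 and 0.15 to the Gli1- ratios. With it 16 members rose and 6 fell in Gli1+ cells at 7 dpi, and 19 rose and 4 fell at 21 dpi. In Gli1- cells the split was 16 higher and 8 lower at 7 dpi, and 16 higher and 4 lower at 21 dpi. TMM adds the same amount to every gene of a comparison, so the shares of all genes move as well. Those shares are not given, and the counts under TMM, here and below, are no result about the members. The falls that did not pass 0.58 under TMM were those of Slc2a1, Hk1 and Adm in Gli1+ cells at both times, of Hk2 in Gli1+ cells at 7 dpi and of Pfkfb3 in Gli1- cells at 7 dpi (-0.65, and -0.54 under TMM). The rises gained at 7 dpi were those of Gpi1 in both sorts and of Pdk1 in Gli1+ cells. At 21 dpi Aldoc, Pfkfb3, Eno2, Pdk1, Egln1 and Bnip3 were gained in Gli1+ cells.

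Counted in both sorts, 14 members rose at 7 dpi and 7 fell, with 16.5% of all genes counted in both sorts higher in both and 21.0% lower in both. At 21 dpi 12 members rose in both sorts and 3, Slc2a3, Pfkp and Adm, fell in both, with 12.1% of all genes higher and 21.7% lower in both. At that time 1 member, Slc2a1, passed the limit in opposite directions, as 2.87% of all genes did. Under TMM the falls of Hk2 (-0.42) and Adm (-0.44) at 7 dpi, the fall of Adm at 21 dpi (-0.36) and the opposite call of Slc2a1 (-0.32) were lost in Gli1+ cells. Rises in both sorts were gained for Gpi1 and Pdk1 at 7 dpi and for Aldoc, Pdk1 and Bnip3 at 21 dpi. At 7 dpi the rise of Aldoc in Gli1+ cells turned to -0.045 without doublet removal, and in thinned Gli1- cells Aldoa (0.54) did not pass and Pfkfb4 turned to 0.0498. In thinned cells Pfkl (0.53 in Gli1+, 0.57 in Gli1-), Tpi1 (0.29 in Gli1+) and Eno1 (0.45 in Gli1-) did not pass at 21 dpi. Promoter matches were present in genes of both directions, in 13 of the 14 members that rose at 7 dpi in both sorts and in all 5 of the lower members that had a promoter. The heat map of log2 ratios gives all 33 members.

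**Figure D1:**
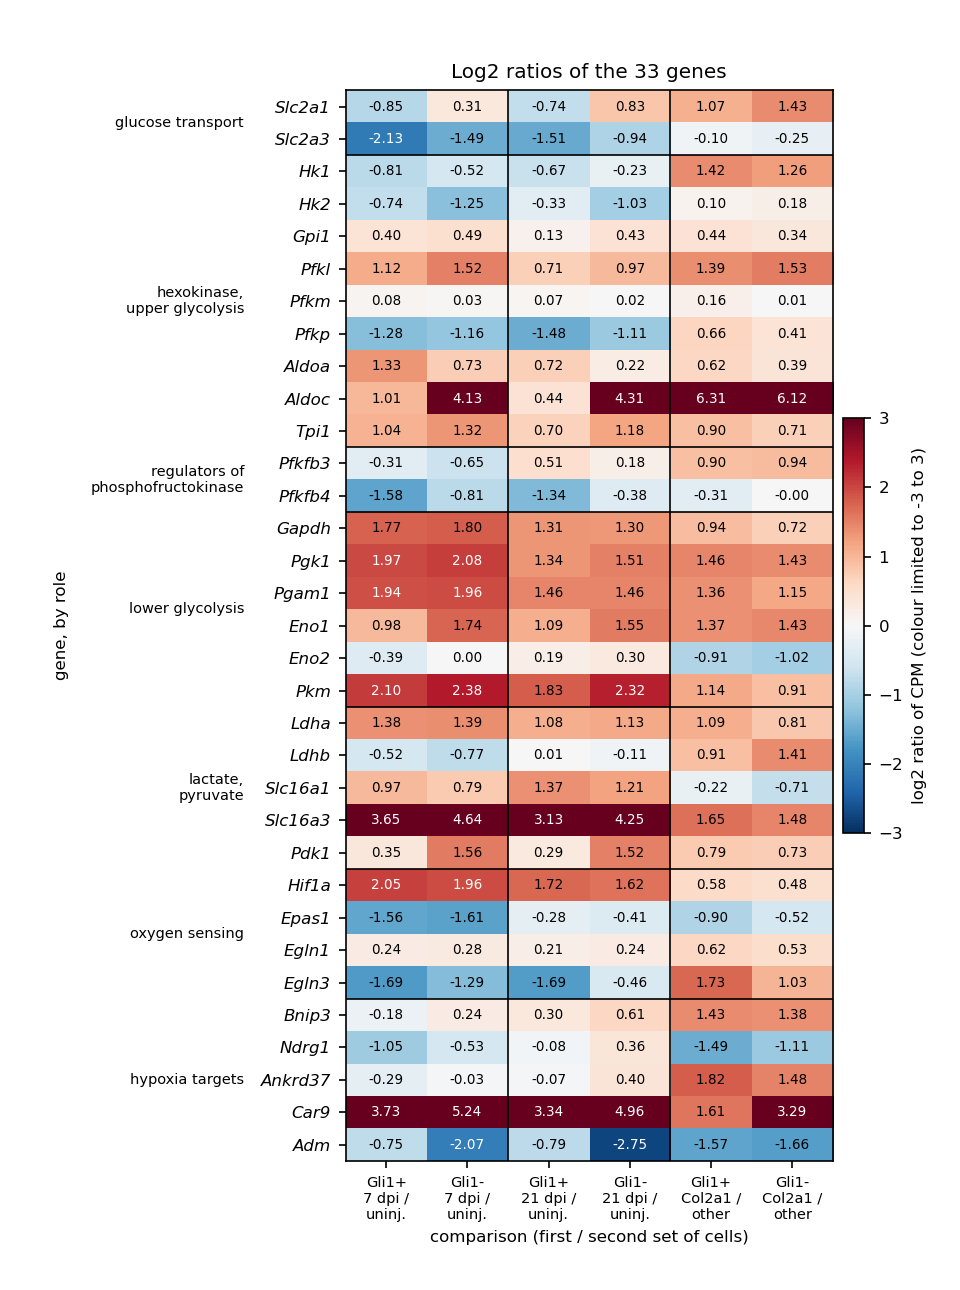
Log2 ratios of CPM for the 33 genes (rows, grouped by role) in 6 comparisons (columns): Pdgfra cells at 7 and 21 dpi over uninjured, and Col2a1 cells over Pdgfra cells without Col2a1 UMIs at 21 dpi, each for Gli1+ and Gli1-. Red is higher in the first set of cells and blue lower, with the colour limited to -3 to 3 and each value printed. The rows from Gapdh to Pkm are red throughout but for Eno2, and the row of Slc2a1 changes colour between the sorts.

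The 2 glucose transporters took different courses. Slc2a3, a transporter of high glucose affinity, fell in both sorts at both times. It stood at 17.6, 4.02 and 6.16 CPM in Gli1+ cells (uninjured, 7 dpi, 21 dpi, the order used from here on) and at 13.7, 4.88 and 7.15 CPM in Gli1- cells. Its log2 ratios at 7 dpi were -2.13 (-2.38 to -1.87) and -1.49 (-1.68 to -1.29). The 4 libraries after injury all lay below both uninjured libraries. Slc2a1, the widespread basal glucose transporter, started from different levels in the 2 sorts. It was at 72.8, 40.5 and 43.5 CPM in Gli1+ cells and at 18.9, 23.4 and 33.6 CPM in Gli1- cells. It was thus higher in Gli1+ than in Gli1- cells of uninjured tendon, by a log2 ratio of 1.95 (1.81 to 2.09), and the gap was 0.79 at 7 dpi and 0.37 at 21 dpi. The change of Slc2a1 at 21 dpi was -0.74 (-0.84 to -0.65) for Gli1+, with 0.83 (0.70 to 0.97) for Gli1-. The Gli1+ change stayed below 0 under TMM, at -0.53 for 7 dpi and -0.32 for 21 dpi, but within the limit. The high Gli1+ level sat in Pdgfra cells without an Scx UMI, at 79.2 CPM in uninjured tendon and 43.4 and 48.0 CPM after injury. Pdgfra cells of the same libraries with an Scx UMI had 30.1, 33.4 and 33.2 CPM, nearly level over the 3 times.

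In the upper part of the pathway the isoforms took different courses. Hk1 and Hk2 are hexokinases, which trap glucose as its phosphate, and Hk2 is the inducible form. Hk2 was at 243, 146 and 193 CPM in Gli1+ cells and at 364, 153 and 178 CPM in Gli1- cells. It was highest in the uninjured library of each sort, and its 7 dpi log2 ratios were -0.74 (-0.79 to -0.68) and -1.25 (-1.29 to -1.22), the first of them -0.42 under TMM. Hk1 was at 49.7, 28.5 and 31.4 CPM and at 40.2, 28.0 and 34.4 CPM and passed the limit in Gli1+ cells, at log2 ratios of -0.81 and -0.67 (-0.49 and -0.24 under TMM), and not in Gli1- cells, at -0.52 and -0.23. Hk2 made up 15.4% of the UMIs of the 17 enzymes in uninjured Gli1+ cells and 4.05% at 7 dpi, and 21.8 and 4.23% in Gli1- cells.

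Phosphofructokinase, which controls the entry of sugar phosphate into the lower pathway, has a platelet-type, a liver-type and a muscle-type subunit. The platelet-type Pfkp was at 134, 55.1 and 48.2 CPM in Gli1+ cells and at 122, 54.5 and 56.5 CPM in Gli1- cells. The liver-type Pfkl was at 11.4, 24.9 and 18.6 CPM and at 8.6, 24.6 and 16.8 CPM. Pfkp fell and Pfkl rose in both sorts, with log2 ratios at 7 dpi of -1.28 (-1.36 to -1.21) and -1.16 (-1.23 to -1.10) for Pfkp and of 1.12 (0.91 to 1.34) and 1.52 (1.34 to 1.70) for Pfkl. The muscle-type Pfkm lay between 9.11 and 10.2 CPM in all 6 libraries. T cell-like cells of the Gli1+ uninjured library had 491 CPM of Pfkp, and 5 T cell markers summed to 44.4 CPM in its Pdgfra cells and to 0.298 CPM in those of the Gli1- uninjured library. The part of T cell RNA in the Pfkp values was not tested.

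Aldoa and Aldoc are aldolases, which split the 6-carbon sugar, and Tpi1 interconverts its 2 products. Aldoa was at 151, 380.4 and 248 CPM in Gli1+ cells and at 226, 375 and 262.5 CPM in Gli1- cells. Its log2 ratio at 7 dpi was 1.33 (1.28 to 1.39) and 0.73 (0.70 to 0.77), and at 21 dpi it was 0.72 in Gli1+ cells (0.39 in thinned cells, within the limit) and 0.22 in Gli1- cells. The 7 dpi ratio of Gli1- cells was also within the limit in thinned cells, at 0.54. Tpi1 was at 99.8, 205 and 162 CPM and at 73.0, 182 and 166 CPM, with log2 ratios at 7 dpi of 1.04 (0.97 to 1.11) and 1.32 (1.26 to 1.38). Both were highest at 7 dpi in each sort. Aldoc, the isoform known from brain, was counted on 7, 43 and 30 UMIs in Gli1+ cells and on 1, 44 and 35 UMIs in Gli1- cells. Its 7 dpi log2 ratio of 1.01 in Gli1+ cells had an interval that holds 0 (-0.16 to 2.40) and was -0.045 without the removal of doublets, and the ratio of 4.13 in Gli1- cells rests on 1 UMI (1.58 to 9.47). Gpi1, which isomerises glucose phosphate, stayed between 84.2 and 127 CPM.

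Pfkfb3 and Pfkfb4 make and degrade fructose 2,6-bisphosphate, the activator of phosphofructokinase. Neither rose past the limit over uninjured cells, except Pfkfb3 in Gli1+ cells at 21 dpi under TMM, which added 0.42 there. Pfkfb4 was at 21.0, 7.04 and 8.34 CPM in Gli1+ cells and at 10.5, 6.0 and 8.06 CPM in Gli1- cells. Its 7 dpi log2 ratios were -1.58 (-1.79 to -1.37) and -0.81 (-1.01 to -0.61), and the Gli1- one was 0.05 in cells thinned to 2000 UMIs. Pfkfb3 was at 20.5, 16.6 and 29.2 CPM and at 27.8, 17.7 and 31.4 CPM. It was lowest at 7 dpi in both sorts and rose from there to 21 dpi, with log2 ratios of 0.82 and 0.83.

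The lower steps moved most alike. Of 6 genes of lower glycolysis 5 rose in each sort at each time, with 15.6 to 24.4% of all genes higher in these comparisons, though Eno1 in Gli1- cells at 21 dpi had 1.55, and 0.45 in thinned cells, which ends that call. Gapdh, which oxidises the 3-carbon sugar, was at 319, 1089 and 794 CPM in Gli1+ cells and at 331, 1158 and 817 CPM in Gli1- cells. Its log2 ratio at 7 dpi was 1.77 (1.73 to 1.81) and 1.80 (1.78 to 1.83). Gapdh held 20.2% of the enzyme UMIs in uninjured Gli1+ cells and 30.3% at 7 dpi, and the sum without it still rose, by log2 ratios of 1.0 and 0.88 at 7 dpi.

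Pgk1, the first step that makes ATP, was at 53.7, 211 and 136 CPM in Gli1+ cells and at 48.6, 205 and 139 CPM in Gli1- cells. Pgam1, which shifts the phosphate, was at 69.1, 265 and 190.5 CPM and at 72.1, 281 and 198 CPM. Both were almost equal in the 2 sorts at each time, and their 7 dpi log2 ratios lay between 1.94 and 2.08. Eno1, the ubiquitous enolase, was at 42.1, 82.9 and 89.5 CPM in Gli1+ cells and at 25.5, 85.4 and 74.9 CPM in Gli1- cells. Its 7 dpi log2 ratio was 0.98 (0.87 to 1.09) and 1.74 (1.64 to 1.85). Eno1b, a near-identical gene copy counted apart at 1.49 to 7.42 CPM, may share reads with it. The neuronal enolase Eno2, at 8.61, 6.59 and 9.82 CPM and at 7.38, 7.38 and 9.1 CPM, was the exception in the group.

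Pkm, pyruvate kinase, closes the pathway. It was at 145, 619 and 513 CPM in Gli1+ cells and at 113, 587 and 565 CPM in Gli1- cells. The log2 ratio at 7 dpi was 2.10 (2.04 to 2.16) and 2.38 (2.33 to 2.42), and at 21 dpi it was 1.83 (1.77 to 1.88) and 2.32 (2.27 to 2.37). Its share of the enzyme UMIs was 9.16, 17.2 and 18.1% for Gli1+, with 6.77, 16.2 and 19.3% for Gli1-. Unlike Gapdh, Pgk1 and Pgam1, Pkm in Gli1- cells was at 21 dpi nearly where it had been at 7 dpi. Between 7 and 21 dpi, a step that cannot be told apart from sex, 4 members rose and 2 fell in Gli1+ cells, with 11.4% of all genes higher and 22.1% lower. The 2 were Aldoa (-0.62) and Pgk1 (-0.64), and under TMM, which added 0.11, 7 rose and 0 fell. In Gli1- cells 5 rose and 1 fell, with 13.4% higher and 16.1% lower. Median log2 ratios were -0.03 and -0.01 over the members and -0.13 and -0.07 over all genes.

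**Figure D2:**
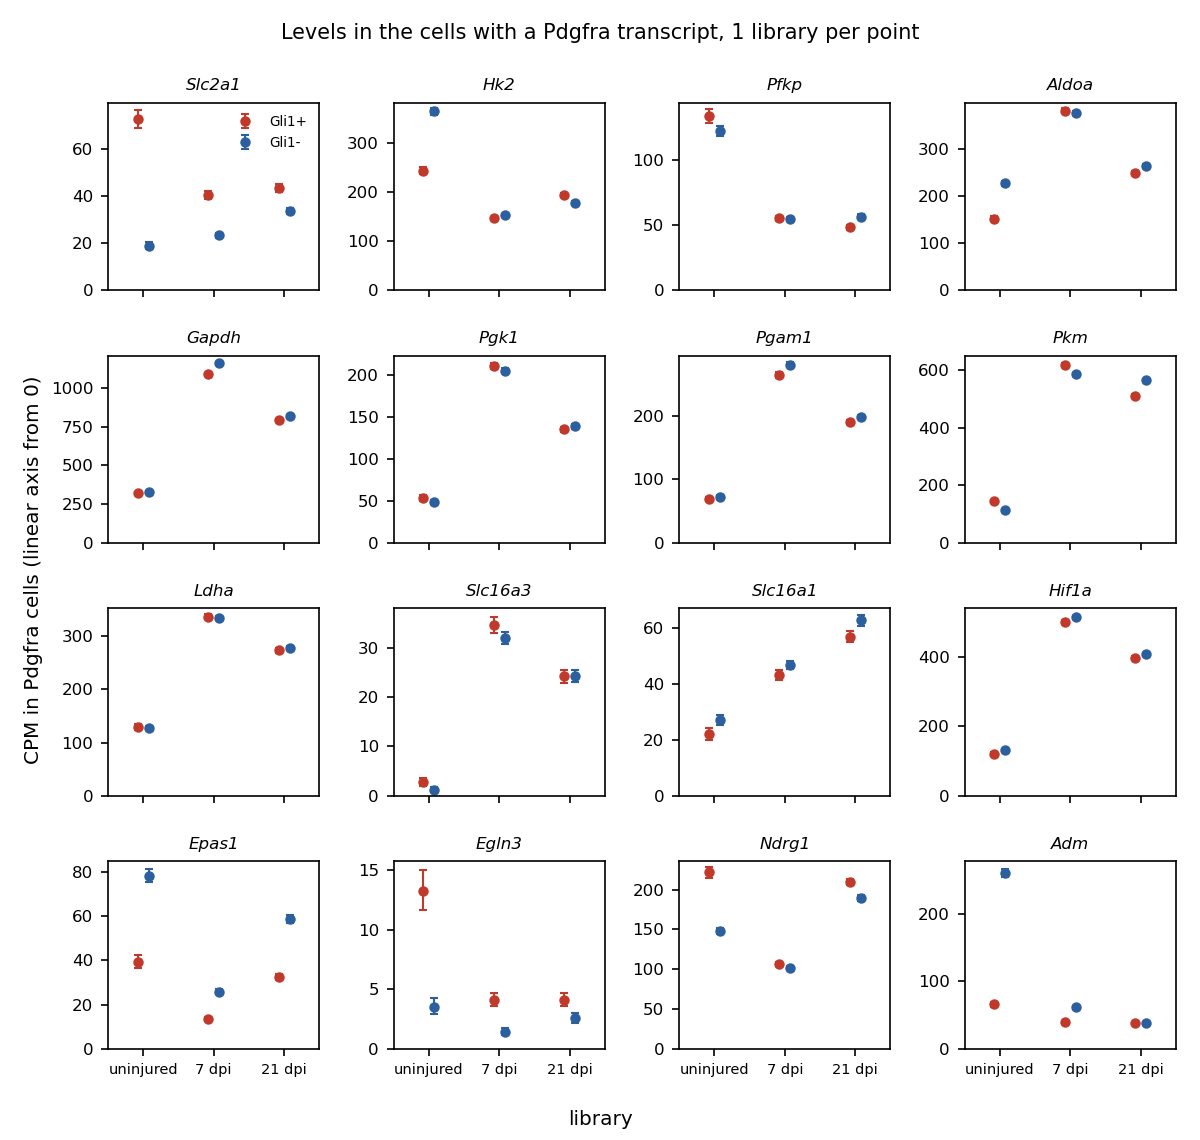
CPM in Pdgfra cells (vertical axes, linear from 0) of 16 members in the 3 Gli1+ (red) and 3 Gli1- (blue) libraries, 1 point per library with its 95% Poisson interval. Gapdh, Pgk1, Pgam1, Pkm, Ldha and Hif1a are lowest in the uninjured library and highest at 7 dpi in both sorts, Pfkp, Hk2 and Adm are highest in the uninjured library, and Slc2a1 starts at 72.8 CPM in Gli1+ and 18.9 CPM in Gli1- cells.

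Transcripts of Ldha and of both Slc16a lactate transporters rose in both sorts, and those of Ldhb rose in neither. Those of Pdk1 rose past the limit in Gli1- cells, and in Gli1+ cells only under TMM. Ldha, the subunit that favours lactate, was at 129, 336 and 273 CPM in Gli1+ cells and at 127, 334 and 278 CPM in Gli1- cells, with 7 dpi log2 ratios of 1.38 (1.32 to 1.44) and 1.39 (1.34 to 1.44). The 2 sorts were almost equal at each time. Ldhb, the other subunit, was at 16.6, 11.6 and 16.7 CPM and at 16, 9.38 and 14.8 CPM, and passed the limit at 7 dpi in Gli1- cells (-0.77, and -0.40 in thinned cells) and not in Gli1+ cells (-0.52). Slc16a3, the exporter of lactate known from glycolytic cells, was at 2.76, 34.6 and 24.2 CPM in Gli1+ cells and at 1.28, 31.9 and 24.3 CPM in Gli1- cells. Its log2 ratio was 3.65 (3.24 to 4.08) and 4.64 (4.21 to 5.11) at 7 dpi, and 3.13 (2.73 to 3.57) and 4.25 (3.81 to 4.72) at 21 dpi. The uninjured levels rest on 50 and 43 UMIs, and the intervals of the uninjured libraries lie far below those of the other 4. Slc16a1, which carries lactate both ways, was at 22.1, 43.1 and 56.9 CPM and at 27.1, 46.7 and 62.8 CPM. It was higher at 21 than at 7 dpi in both sorts, unlike Slc16a3 and Ldha. Pdk1, which inhibits pyruvate dehydrogenase in mitochondria, was at 11.8, 15.0 and 14.4 CPM in Gli1+ cells and at 4.76, 14.0 and 13.6 CPM in Gli1- cells. It passed the limit in Gli1- cells, at 1.56 (1.32 to 1.80) for 7 dpi, and not in Gli1+ cells, at 0.35, and the 4 libraries after injury lay between 13.6 and 15.0 CPM. TMM added 0.32 and 0.42 to the Gli1+ ratios at 7 and 21 dpi, which then both passed the limit.

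The 2 HIF alpha subunits took opposite courses. Hif1a was at 120.2, 499 and 395 CPM in Gli1+ cells and at 132, 513 and 406 CPM in Gli1- cells. Its log2 ratio was 2.05 (1.99 to 2.12) and 1.96 (1.92 to 2.01) at 7 dpi and 1.72 (1.65 to 1.78) and 1.62 (1.58 to 1.67) at 21 dpi. Epas1 was at 39.3, 13.3 and 32.4 CPM in Gli1+ cells and at 78.3, 25.7 and 58.7 CPM in Gli1- cells. It fell at 7 dpi, by log2 ratios of -1.56 (-1.71 to -1.41) and -1.61 (-1.69 to -1.52), and at 21 dpi it was within the limit of the uninjured level, at -0.28 and -0.41. Epas1 is known for high expression in endothelium, and in endothelial-like cells it reached 1060.0 CPM. The sum of 6 endothelial markers in the Pdgfra cells was 50.5, 21.3 and 16.1 CPM for Gli1+, with 208, 76.2 and 95.8 CPM for Gli1-, and none of the 6 was at 0. The marker sum was higher in Gli1- than in Gli1+ cells at each time and lower after injury in both sorts. The part of other cells' RNA in the Epas1 values was not tested.

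Egln1, the main HIF prolyl hydroxylase, stayed between 56.0 and 73.7 CPM. Egln3, a hydroxylase that HIF itself is known to induce, was at 13.3, 4.10 and 4.12 CPM in Gli1+ cells and at 3.54, 1.44 and 2.57 CPM in Gli1- cells, and fell at 7 dpi in both, by -1.69 (-1.96 to -1.43) and -1.29 (-1.67 to -0.92). T cell-like cells of the Gli1+ uninjured library had 49.2 CPM of Egln3 and epidermal-like cells 37.1 CPM, and markers of both types were higher in the Pdgfra cells of that library than of the Gli1- uninjured library, at 44.4 against 0.298 CPM for the 5 T cell markers (1 of them at 0 in the Gli1- cells) and 287 against 28.6 CPM for the 6 epidermal markers (3 of them at 0 in the Gli1- cells). Their part in the Egln3 value was not tested.

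Of the 5 hypoxia targets 1 rose and 2 fell in Gli1+ cells at 7 dpi, with 22.8% of all genes higher and 34.2% lower, and 1 rose and 1 fell in Gli1- cells, with 24.4% higher and 28.3% lower. At 21 dpi 1 rose and 1 fell in Gli1+ cells, with 15.6% of all genes higher and 37.8% lower, and 2, Bnip3 and Car9, rose and 1 fell in Gli1- cells, with 22.0% higher and 29.1% lower and a median of 0.40 over the 5. Summed with Egln3 they were at 349, 193 and 310.3 CPM and at 447, 206 and 283 CPM. Car9, which rose in all 4 comparisons, a carbonic anhydrase on the cell surface, had 2, 81 and 64 UMIs in Gli1+ and 1, 95 and 55 UMIs in Gli1- cells. Its 7 dpi log2 ratios were 3.73 (1.83 to 6.80) and 5.24 (2.73 to 10.56). Adm encodes adrenomedullin, a peptide that widens vessels. It was at 65.9, 39.1 and 38.2 CPM in Gli1+ cells and at 261, 62.1 and 38.9 CPM in Gli1- cells, with 7 dpi log2 ratios of -0.75 (-0.86 to -0.65) and -2.07 (-2.12 to -2.02). The Gli1+ ratio was within the limit under TMM (-0.44), in thinned cells (-0.38) and without cells that held a cell cycle UMI (-0.34). The uninjured Gli1- library was far above the other 5, which ran from 38.2 to 65.9 CPM. Ndrg1, a protein linked to stress and differentiation, was at 222, 107 and 210.0 CPM and at 148, 102 and 189 CPM. It fell past the limit in Gli1+ cells at 7 dpi (-1.05, -1.11 to -1.0) and was close to the limit in Gli1- cells (-0.53), and in both sorts it rose again from 7 to 21 dpi, by 0.97 and 0.89. Bnip3, which links hypoxia to the removal of mitochondria, was at 42.2, 37.3 and 52.1 CPM and at 30.3, 35.7 and 46.2 CPM. It passed the limit in Gli1- cells at 21 dpi (0.61, and 0.34 in thinned cells), and under TMM also in Gli1+ cells at 21 dpi. Ankrd37, an ankyrin repeat protein, was at 5.02, 4.11 and 4.8 CPM and at 3.9, 3.81 and 5.13 CPM, within the limit throughout.

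Other genes of the same pathways were counted in Pdgfra cells in the same 4 comparisons (Gli1+ at 7 and 21 dpi, Gli1- at 7 and 21 dpi). Of 16 further HIF targets 5, 6, 6 and 6 rose and 5, 2, 3 and 2 fell, with medians of 0.20, 0.18, 0.26 and 0.26. Those that rose in all 4 were Plod2, which hydroxylates lysine in collagen, Lox, which crosslinks it, and Higd1a and Fam162a, mitochondrial proteins. Plod2 was at 186, 477 and 384 CPM in Gli1+ and at 113, 522 and 426 CPM in Gli1- cells. The gene that fell in all 4 was Pgf, placental growth factor, at 41.9, 14.2 and 12.3 CPM and at 69.2, 15.6 and 14.2 CPM. Vegfa, the best known HIF target, was at 74.5, 47.9 and 54.1 CPM and at 81.5, 47.5 and 50 CPM. The shares of all genes to set beside these counts are those given for the members in the same comparisons.

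Of the 4 genes of the HIF machinery none rose, and Hif3a fell in all 4 comparisons. Arnt, the partner of the alpha subunits, was at 142, 102 and 99.1 CPM in Gli1+ and at 268, 109 and 98.1 CPM in Gli1- cells, a fall past the limit in Gli1- cells. Of 7 pentose phosphate genes 3, 2, 3 and 2 rose and 1, 1, 1 and 2 fell, and Pgls and Taldo1 rose in all 4. Of 10 genes of pyruvate use in mitochondria 1 rose in each comparison, Pdk3, and 2, 2, 1 and 1 fell, Pdk4 each time. Pdk3 had 12.3, 28.9 and 23.9 CPM in Gli1+ cells, with 10, 30.3 and 23.8 CPM in Gli1- cells. Pdk4, a kinase known to be high in fasted cells that burn fat, was at 8.61, 1.70 and 2.23 CPM and at 8.39, 1.34 and 2.84 CPM. Of 8 further forms of the glycolytic enzymes, known mainly from muscle, liver, blood or testis, 5 or 6 had enough UMIs, 3 rose and 2 fell in each comparison.

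Several other features of the Pdgfra cells moved with time. The sum of 5 cell cycle genes was 21.1, 223 and 51.0 CPM for Gli1+, with 6.28, 160 and 51.5 CPM for Gli1-, highest at 7 dpi like the enzymes. Without the cells that held a cell cycle UMI the enzyme log2 ratio was 0.99 and 0.89 at 7 dpi and 0.76 and 0.72 at 21 dpi. Stress genes such as Fos and Hspa1a, which rise during tissue dissociation, summed to 20190.4, 9484 and 12011 CPM and to 25676, 10345 and 10731 CPM, highest in the uninjured libraries, and the nuclear transcript Malat1 was at 25742, 12847 and 19114 CPM and at 16656, 10705 and 18273 CPM. Markers of bone, 4 genes, summed to 1598, 2.82 and 615 CPM and to 57.2, 24.1 and 353 CPM, and so differed between the sorts far more than the enzymes did. The part of stress genes, Malat1 and bone markers in the ratios was not tested. Among cells with a Y-linked UMI only, the 7 dpi enzyme ratio was 1.17 in Gli1+ and 1.15 in Gli1- cells, and among Xist cells the 21 dpi ratio in Gli1+ cells was 0.84.

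Comparing the sorts directly, 7 of 31 members counted in uninjured cells were higher in Gli1+ than in Gli1- cells and 4 were lower, with 23.9% of all genes higher and 10.9% lower. The 7 were Slc2a1, Pfkfb4 (1.0), Eno1 (0.72), Slc16a3 (1.11), Pdk1 (1.30), Egln3 (1.9) and Ndrg1 (0.59), and the 4 were Hk2 (-0.58), Aldoa (-0.58), Epas1 (-1.0) and Adm (-1.99). At 7 dpi 2 of 33 were higher and 2 lower, with 10.3% of all genes higher and 6.4% lower. At 21 dpi 1 was higher and 1 lower, with 4.81% higher and 7.85% lower. Egln3 was higher and Epas1 lower in Gli1+ cells at all 3 times. The shares of members apart followed those of all genes, which were also highest before injury. The 2 uninjured libraries differed as well in the sex of their cells, in T cell markers and in depth, with a median of 9071.5 UMIs per Pdgfra cell in Gli1+ and 5944 in Gli1-. These cannot be told apart from the sort. TMM changed the uninjured ratios by -0.26 and left 5 members higher and 5 lower, with Eno1 and Ndrg1 within the limit and Pfkfb3 lower.

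Cells with an Scx transcript, the tendon transcription factor, numbered 640, 2159 and 2279 in the Gli1+ sort, with 167, 1893 and 1758 in Gli1-. Their 17 enzymes summed to 1709, 4089 and 3344 CPM and to 1864, 4405 and 3421 CPM, with log2 ratios to uninjured of 1.26 and 0.97 for Gli1+, with 1.24 and 0.88 for Gli1-. The rise in Scx cells was therefore at least as large as in Pdgfra cells. The 2 gates overlap, since 170, 1069 and 1163 of the Gli1+ Scx cells and 53, 1311 and 1009 of the Gli1- ones held a Pdgfra UMI. The uninjured Scx cells thus held a smaller share of Pdgfra cells than those after injury, and the part of this shift was not tested. The cell cycle sum of the Scx cells was 211, 234 and 52.0 CPM in Gli1+ and 0.758 (4 of 5 genes at 0), 191 and 57.9 CPM in Gli1-, and its part in the rise was not tested. Hif1a was at 141, 488 and 385 CPM and at 182, 529 and 414 CPM, and Pkm at 213, 721 and 611 CPM and at 219, 748 and 672 CPM, so that both rose in both sorts. Slc16a1, in contrast to Pdgfra cells, did not pass the limit in Scx cells, with log2 ratios between -0.35 and 0.03. At 7 dpi Hk2 did not fall past the limit either, at -0.28 in Gli1+ and -0.19 in Gli1- cells. Pfkp fell in Gli1+ Scx cells (-0.87) and not in Gli1- ones (0.24).

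Within Pdgfra cells, those with an Scx UMI had higher enzyme levels after injury than those without. The enzyme sum was 4287 against 3318 CPM in Gli1+ and 4497 against 3275 CPM in Gli1- cells at 7 dpi, and 3504 against 2548 CPM and 3545 against 2717 CPM at 21 dpi. Those are log2 ratios of 0.37, 0.46, 0.46 and 0.38, each below the limit of 0.58. Of the 33 members 3 were higher past it in all 4 libraries and 2 lower, with 0.957% of all genes higher and 4.39% lower in all 4. Slc16a3 was higher in the Scx cells by 0.79 to 1.12, Eno1 by 0.63 to 0.78 and Car9 by 0.83 to 1.99, Epas1 was lower by log2 ratios of -0.94 to -0.58, and Adm was lower by -2.02 to -1.05. Deeper cells are more likely to show an Scx UMI, and the part of depth was not tested.

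Cells with 5 or more Col2a1 UMIs, the main cartilage collagen, were found in number only at 21 dpi, 262 in Gli1+ and 322 in Gli1- (1 to 46 in the other libraries, which were not analysed). They were compared with the 4561 and 4106 Pdgfra cells of the same libraries without a Col2a1 UMI. Of the Col2a1 cells 107 of the 262 and 154 of the 322 held a Pdgfra UMI. The 2 sets thus differ in Pdgfra as well as in Col2a1, and the part of each was not tested. The other 6 chondrocyte markers, which the gate did not use, summed to 9834 and 12174 CPM, against 522 and 474 CPM. Bone markers were also higher, at 13613 and 4861 CPM against 207 and 156 CPM, with a bone marker UMI in 133 of the 262 and 178 of the 322 cells, and mixed cells and cells that carry both marker sets were not told apart.

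The Col2a1 cells had the highest enzyme level of the mesenchymal cells measured, 5284 CPM in Gli1+ and 4809 CPM in Gli1- cells against 2675 and 2764 CPM. The log2 ratio was 0.98 (0.96 to 1.0) and 0.80 (0.78 to 0.82), and in thinned cells 1.36 and 1.17. Of the 33 members 22 were higher and 4 lower in Gli1+ cells, with 13.7% of all genes higher and 26.0% lower. In Gli1- cells 19 were higher and 4 lower, with 13.2% higher and 26.1% lower. Medians were 0.90 and 0.73 over the members and -0.14 and -0.17 over all genes. All 19 were higher in both sorts and 3 were lower in both, with 8.69% of all genes higher and 17.7% lower in both. Under TMM 23 members were higher in Gli1+ cells and 20 in Gli1- cells, without a share of all genes to set beside them.

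Of the 2 glucose transporters Slc2a1 was higher here, and Slc2a3 was within the limit at -0.10 and -0.25. Slc2a1 was at 88.2 and 82.4 CPM in Gli1+ and Gli1- Col2a1 cells, against 42.1 and 30.6 CPM, and Hk1 at 78.7 and 77.2 CPM against 29.5 and 32.2 CPM, while Hk2 differed by only 0.10 and 0.18 on the log2 scale. Pgk1 was at 335 and 336 CPM against 122 and 125 CPM, Eno1 at 210.0 and 178 CPM against 81.4 and 66.2 CPM, and Pkm at 1057 and 978 CPM against 479 and 521 CPM. Hk1, the ATP-making steps and Eno1 were thus all higher in the same cells. The other enolase, Eno2, was lower past the limit in both sorts, at 5.23 and 4.59 CPM in the Col2a1 cells. Ldha was at 546 and 455.5 CPM against 257 and 260 CPM, and Slc16a3 at 67.3 and 59.1 CPM against 21.5 and 21.2 CPM, but Slc16a1 was not higher (log2 ratios -0.22 and -0.71). The widest gap was that of Aldoc, with 84 and 60 UMIs (20 and 12.0 CPM) in the Col2a1 cells and 12 and 7 UMIs (0.253 and 0.172 CPM) in the far larger set of other Pdgfra cells. Its log2 ratio was 6.31 (5.43 to 7.31) and 6.12 (4.99 to 7.49). Of the 30 and 35 Aldoc UMIs of all Pdgfra cells at 21 dpi, 12 and 7 thus lay in cells without a Col2a1 UMI.

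The hypoxia targets divided here too, but with more of them higher. Their sum with Egln3 was not higher, at 255.7 CPM in Gli1+ and 240.1 CPM in Gli1- Col2a1 cells. All Pdgfra cells of the same libraries had 310.3 and 283.0 CPM. Bnip3 was at 134 and 113 CPM against 49.9 and 43.3 CPM, a log2 ratio of 1.43 and 1.38, and Ankrd37 at 15.7 and 12.6 CPM against 4.46 and 4.51 CPM, a log2 ratio of 1.82 and 1.48. With injury in Pdgfra cells, Ankrd37 had not passed the limit and Bnip3 had done so in 1 of 4 comparisons. Egln3 was higher by 1.73 and 1.03, on 47 and 29 UMIs, and Car9 by 1.61 (0.61 to 2.52) and 3.29 (2.46 to 4.14), on 13 and 29 UMIs. Ndrg1 was lower, at 77.5 and 90.6 CPM against 218 and 195 CPM, and so was Adm, at 13.8 and 12.8 CPM against 41.0 and 40.3 CPM. Hif1a was at 570 and 535 CPM against 381 and 384 CPM, just within the limit at 0.58 and 0.48. TMM added 0.043 to the Gli1+ ratio, which then passed the limit. Of the 16 further HIF targets 9 were higher and 2 lower in each sort, with medians of 0.79 and 0.73. The 9 were the same genes in both sorts, Vegfa, P4ha1, P4ha2, Plod2, Ero1a, Higd1a, Ak4, Fam162a and Stc2. Higd1a reached 593 and 590.2 CPM in Col2a1 cells, and Lox and Pgf were lower.

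**Figure D3:**
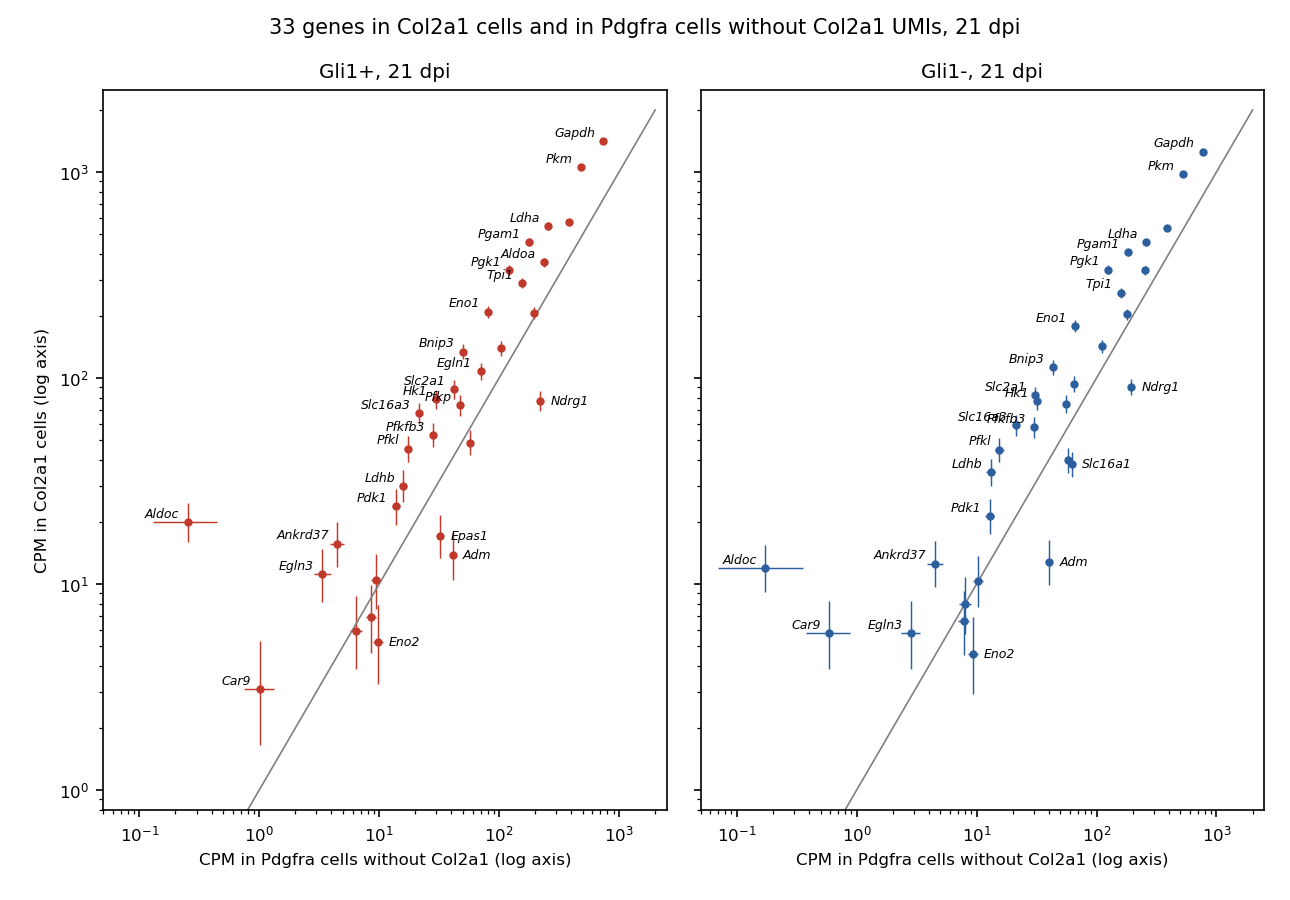
CPM of the 33 genes in Col2a1 cells (vertical, log axis) against Pdgfra cells without Col2a1 UMIs (horizontal, log axis) at 21 dpi, Gli1+ on the left and Gli1- on the right, 1 point per gene with 95% Poisson intervals on both axes and the line of equal levels. Names mark the genes past a log2 ratio of 0.58. Most points lie above the line, Aldoc farthest, and Ndrg1, Adm and Eno2 lie below it in both sorts.

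The Col2a1 cells also had more UMIs per cell, a median of 15018.5 and 14692.5 against 9337 and 8850.5, a higher cell cycle sum, 82.3 and 71.1 against 44.7 and 41.8 CPM, and a lower stress gene sum, 9671 and 9116 against 12305 and 11124 CPM. Without cells that held a cell cycle UMI the enzyme log2 ratios were 1.04 and 0.86. The part of depth and stress was not tested.

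Per cell, the enzymes were spread widely. With each cell thinned to 2000 UMIs, the median Pdgfra cell had 3, 5 and 4 enzyme UMIs at uninjured, 7 and 21 dpi in both sorts, and the 90th percentile was 6, 12 and 9 UMIs in Gli1+ cells. Scx cells had medians of 3, 6 and 5 (Gli1+) or 3, 7 and 5 (Gli1-), and Col2a1 cells 8 and 7. The ranges of the libraries overlapped throughout. The SD over Gli1+ Pdgfra cells was 1.98 in uninjured tendon, near the 1.75 that counting alone would give at that mean, and 4.81 at 7 dpi, against 2.55. In Gli1- Pdgfra cells it was 2.08 against 1.8 and 4.57 against 2.51. The Scx cells of uninjured tendon had an SD beyond counting, 2.98 against 1.82 in Gli1+ and 4.99 against 1.94 in Gli1- cells. Their 10th to 90th percentiles were 1 to 6 and 1 to 6.7 UMIs, close to the 1 to 6 UMIs of uninjured Pdgfra cells in both sorts.

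**Figure D4:**
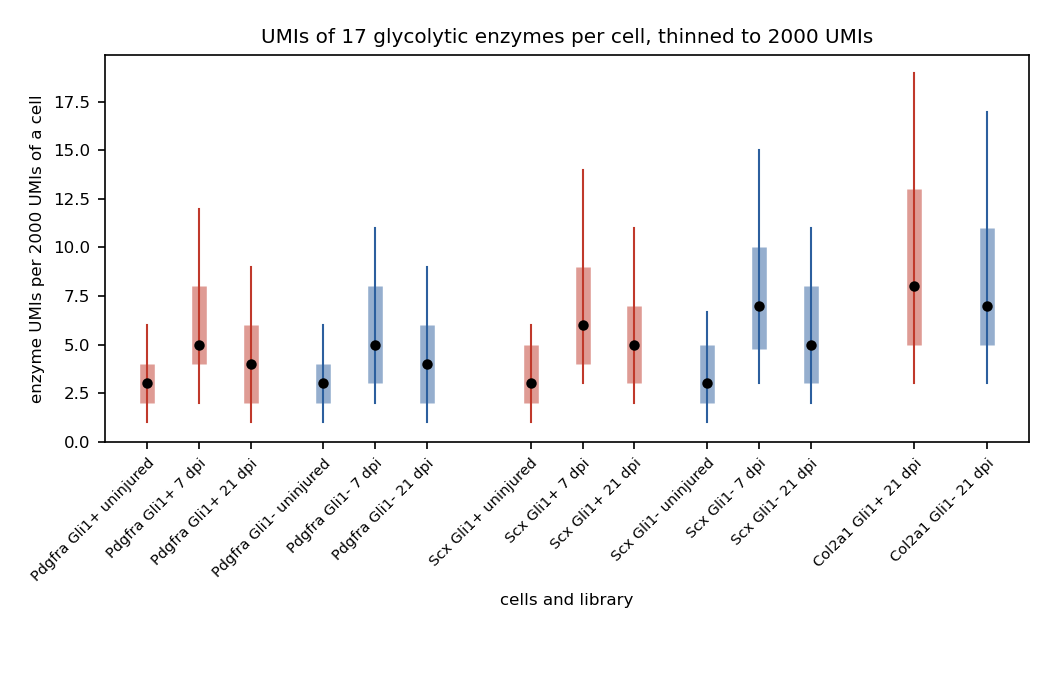
UMIs of the 17 glycolytic enzymes per cell, with each cell thinned to 2000 UMIs (vertical axis), in Pdgfra, Scx and Col2a1 cells of each library, Gli1+ in red and Gli1- in blue. Dots are medians, bars the 25th to 75th and lines the 10th to 90th percentile of cells, which are not replicates. The median of Pdgfra cells is 3 in both uninjured libraries and 5 in both 7 dpi libraries, and that of Col2a1 cells 8 and 7.

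The rise of the enzymes was not particular to mesenchymal cells. Other types were named from cells without Pdgfra UMIs that held 2 or more markers of the type. In endothelial-like cells of the Gli1- libraries the enzymes summed to 1663, 3149.8 and 2845 CPM, in mural-like cells to 2197, 3387 and 2758 CPM, in lymphatic-like cells to 1401, 3761 and 2754 CPM and in Schwann-like cells to 1731, 3425 and 1938 CPM. All 4 types were lowest in uninjured tendon and highest at 7 dpi. In the Gli1+ libraries endothelial-like cells had 1531 CPM when uninjured and 2575 CPM at 21 dpi, mural-like cells 1984 and 2643 CPM, and epidermal-like cells 2199 and 3594 CPM. The Gli1+ 7 dpi library gave too few cells of the first 2 types. Keratin UMIs in nearly all its cells make the third uncertain there, with 4309 cells at 3591 CPM, close to the 3598 CPM of its Pdgfra cells. Epidermal-like cells of the Gli1- libraries had 4807 CPM at 7 dpi (72 cells) and 3366 CPM at 21 dpi. The Schwann-like cells came nearest to their uninjured level at 21 dpi. T cell-like, myeloid-like and skeletal muscle-like cells were frequent enough only in the Gli1+ uninjured library, at 2088, 1762 and 3753 CPM.

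Single members followed in these types. Pkm was at 148, 481.5 and 502 CPM in Gli1- endothelial-like cells and at 91.6, 449 and 236 CPM in Schwann-like cells. Hif1a was at 149, 357 and 409.6 CPM in Gli1- endothelial-like cells, at 186, 394 and 309.7 CPM in mural-like and at 159.6, 280.0 and 381 CPM in lymphatic-like cells. In the endothelial-like and lymphatic-like cells Hif1a was thus highest at 21 dpi, and in the Pdgfra and mural-like cells at 7 dpi. Epas1 was at 997, 344 and 432 CPM in Gli1- endothelial-like and at 529, 196 and 417 CPM in mural-like cells, lowest at 7 dpi as in Pdgfra cells. Ndrg1 was at 716, 246 and 409 CPM in Schwann-like cells, which are known to need it for myelin, and Adm at 80.8, 19.3 and 16.2 CPM in Gli1- mural-like cells. The difference in Slc2a1 between the sorts appeared in endothelial-like cells too, at 116 and 108 CPM in Gli1+ cells (uninjured and 21 dpi) against 35.0 and 49.0 CPM in Gli1- cells. Epidermal-like cells at 21 dpi had 109 against 67.3 CPM. In mural-like cells the intervals of the sorts overlapped, at 47.0 and 43.2 CPM in Gli1+ against 30.8 and 38.5 CPM in Gli1- cells.

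**Figure D5:**
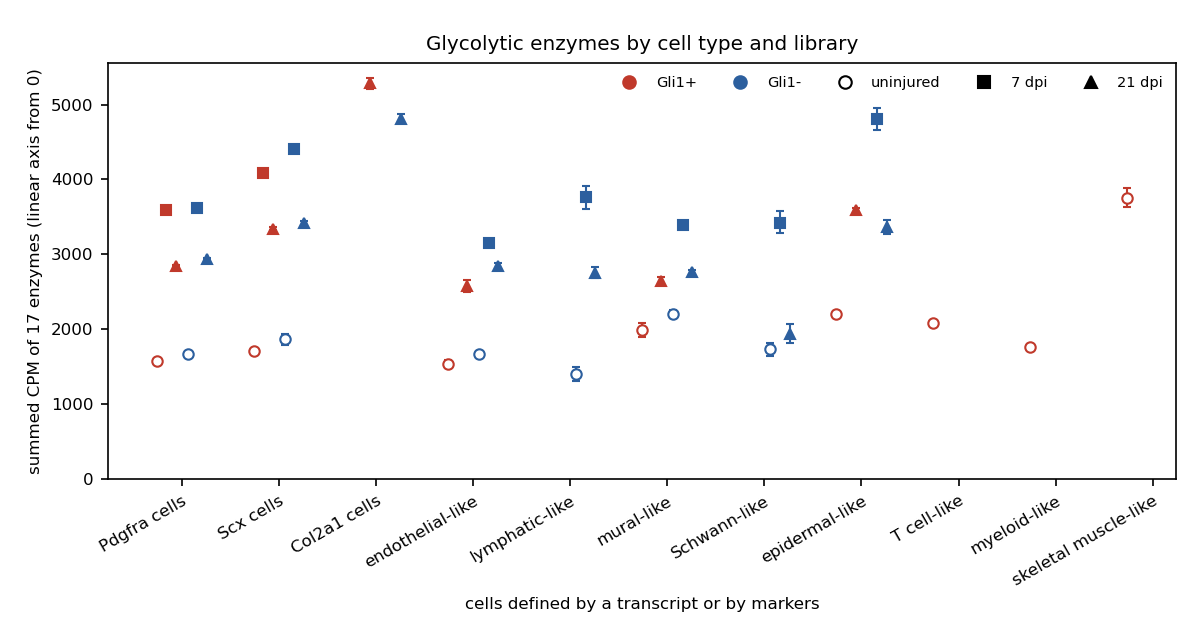
Summed CPM of the 17 glycolytic enzymes (vertical axis, linear from 0) by cell type, Gli1+ in red and Gli1- in blue, uninjured as open circles, 7 dpi as squares and 21 dpi as triangles, with 95% Poisson intervals and 1 library per point. In each type that has values before and after injury the uninjured point is the lowest of its sort, and the Col2a1 cells reach 5284 and 4809 CPM.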

How the data were processed

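The 6 deposited tables each hold raw UMI counts per gene and cell that the authors made with the 10x Chromium 3′ v3 kit and Cell Ranger. The submitters' processing notes name Cell Ranger 3.1.0, STAR and mm10, the file headers name Cell Ranger 9.0.0, and the annotation release is not given in the sources used here. The counts are not normalized. The tables hold 8236 to 16437 barcodes, none below 500 UMIs. Following the study's methods, cells were kept with 200 or more genes, 1000 or more UMIs, log10 genes divided by log10 UMIs at 0.7 or above, and at most 5% mitochondrial and 5% hemoglobin UMIs. Doublets were called with Scrublet in scanpy 1.11.5 in place of DoubletFinder, at 0.8% per 1000 cells, which removed 451 to 1160 cells per library and left 53564928 to 107887022 UMIs.

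UMIs were summed over the gated cells of a library (1 or more Pdgfra, 1 or more Scx, 5 or more Col2a1 UMIs, or 2 or more markers of a type, with 50 or more cells). A count of 0 was set to a floor of 3 for a ratio. All 33 members were described by role. Those past the limit in 1 direction in both sorts at 1 time or more, in opposite directions in the sorts, or in Col2a1 cells of both sorts are given per library and the rest by range. Members and lists were chosen with earlier results of these data known, so no test was made on them. Intervals were checked on simulated counts. Python 3.11.15, numpy 2.4.6, scipy 1.17.1, R 4.3.3 and edgeR 4.0.16 (TMM factors only) were used. Gene levels with pseudogene copies (Gapdh, Ldha, Pgam1, Pkm, Tpi1 and Aldoa among them) depend on how reads with several matches were assigned.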

Additional observations from a re-analysis of the deposited data

Results flagged for a closer look

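In Pdgfra cells 4 contrasts moved in opposite directions in the 2 sorts, each with a counting interval that leaves out 0. This rule is looser than the limit of a change used above, and the share of all genes that meet it is not given. Whether 4 such contrasts are unusual is therefore not known. Only Slc2a1 at 21 dpi passed the limit in opposite directions in the sorts, as 2.87% of all genes did. With 1 library per condition the difference between the sorts was not tested. Slc2a1 at 7 dpi over uninjured had a log2 ratio of -0.85 (-0.95 to -0.75) for Gli1+, with 0.31 (0.18 to 0.44) for Gli1-. At 21 dpi Slc2a1 had -0.74 (-0.84 to -0.65) for Gli1+, with 0.83 (0.70 to 0.97) for Gli1-. Among cells with a Y-linked UMI only, Slc2a1 was at 62.0 CPM in uninjured and 40.0 CPM in 7 dpi Gli1+ cells and at 18.5 and 23.9 CPM in Gli1- cells, and among Gli1+ cells with Xist only it was at 73.6 CPM in uninjured and 43.5 CPM at 21 dpi. Bnip3 at 7 dpi had a log2 ratio of -0.18 (-0.30 to -0.06) for Gli1+, with 0.24 (0.13 to 0.34) for Gli1-. Ndrg1 at 21 dpi had -0.081 (-0.13 to -0.03) for Gli1+, with 0.36 (0.31 to 0.40) for Gli1-. Under TMM scaling the Gli1+ ratios of Bnip3 and Ndrg1 became 0.14 and 0.34, so that the sorts no longer differed in direction, whereas those of Slc2a1 stayed below 0.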

How the results depend on the processing

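Of 88 member ratios past the limit, 88 kept their direction and 80 stayed past the limit under TMM scaling, 87 and 86 without doublet removal, and 79 and 67 of the 80 that could be counted in cells thinned to 2000 UMIs. Direction turned for Aldoc in Gli1+ cells at 7 dpi without doublet removal (-0.045) and for Pfkfb4 in Gli1- cells at 7 dpi in thinned cells (0.0498). The limit under TMM was no longer passed by Slc2a1, Hk1, Hk2 and Adm in Gli1+ cells at 7 dpi. The members lower in Gli1+ cells were 6 of 10 at 7 dpi with a limit of 1 and also 6 under TMM, 4 of 7 at 21 dpi with either, and those lower in Gli1- cells at 7 dpi were 5 of 9 in thinned cells. The enzyme log2 ratio of Gli1+ cells at 7 dpi (1.19) was 1.51 under TMM, 1.09 as a mean over cells, 0.996 without Gapdh, 1.16 without cell filters, 1.14 without doublet removal, 0.97 thinned, 1.15 without cells with a muscle UMI, 1.23 at a gate of 2 Pdgfra UMIs, 0.99 without cell cycle cells, 1.17 in male cells and 1.14 without Col2a1 cells. In the same order without a value for male cells, Gli1+ at 21 dpi (0.85) gave 1.27, 0.61, 0.70, 0.81, 0.79, 0.53, 0.82, 0.93, 0.76 and 0.73, and 0.77 without cells of other types. Gli1- at 7 dpi (1.11) gave 1.22 under TMM, 0.95 as a mean, 0.88 without Gapdh, 1.08 without filters, 1.09 without doublet removal, 0.77 thinned, 1.09 without other types, 0.89 without cell cycle cells, 1.15 in male cells and 1.07 without Col2a1 cells. Gli1- at 21 dpi (0.81) gave 0.96, 0.56, 0.66, 0.76, 0.80, 0.40, 0.77 and 0.72 for the same choices up to cell cycle cells, 0.73 without Col2a1 cells and 0.86 at the gate of 2. The Col2a1 comparison in Gli1+ (0.98) gave 1.03 under TMM, 1.21 as a mean, 0.93 without doublet removal, 1.36 thinned, 1.15 without other types, 1.01 without muscle UMIs, 1.04 without cell cycle cells and 1.01 in female cells, and in Gli1- (0.80) 0.88, 0.98, 0.73, 1.17, 0.88, 0.73 and 0.86, and 0.83 without Gapdh. The thinned ratios do not cover the same cells as the gates on full counts, which the per-cell values use. The cause of these shifts was not tested. Cells by sex, without cell cycle UMIs and without Col2a1 UMIs were chosen after seeing the data. No value could be had without cells of other types in Gli1+ at 7 dpi (2 cells left), for female cells at 7 dpi and in Gli1- at 21 dpi, or for male cells at 21 dpi. No analysis of the sorts paired by time point was made. Each condition is 1 library with no replicate number, and the 2 sorts of a time point may share mice. The lack of replicates is the main limit: intervals leave out the spread between mice, and genes under about 50 UMIs in a library, such as Aldoc and Car9, have wide ones.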

Other observations

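Over whole libraries, with all kept cells, the 17 enzymes summed to 1866, 3596 and 2952 CPM in Gli1+ and to 1719, 3599 and 2907 CPM in Gli1- (uninjured, 7 dpi, 21 dpi), close to the Pdgfra cells. Hif1a was at 237, 453 and 369.5 CPM and at 136, 486 and 378 CPM, and the uninjured Gli1+ value lies above that of its Pdgfra cells, where T cell-like cells, 2866 of 7057 kept cells, held 401 CPM of Hif1a. Adm was at 29.7, 31.5 and 30 CPM over all Gli1+ cells and at 193, 54.5 and 31.3 CPM over all Gli1- cells. Adm thus kept nearly 1 level in whole Gli1+ libraries although it fell in their Pdgfra cells. The make-up of these libraries differed, with 25.1, 51.8 and 53.7% Pdgfra cells. T cell-like cells, with 1.85 CPM of Adm, were 40.6% of the uninjured one. The part of this difference in the Adm values was not tested. Slc2a1 was at 61.2, 56.2 and 57.4 CPM and at 24.9, 24.3 and 36.3 CPM.

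Among the types found in the uninjured Gli1+ library, T cell-like cells had 491 CPM of Pfkp, 49.2 CPM of Egln3 and 39.2 CPM of Slc2a3, and mural-like cells 81.6 CPM of Slc2a3. Bnip3 was at 84.1, 33.8 and 38.9 CPM in Gli1- endothelial-like cells, lower after injury, while Hk2 was at 18.5, 47.1 and 24.7 CPM in the same cells, against 364, 153 and 178 CPM in Gli1- Pdgfra cells. Lox, a collagen crosslinking enzyme, had 181, 536 and 419 CPM in Gli1+ Pdgfra cells, with 102, 564 and 419 CPM in those of Gli1-, and Ddit4 at 32.1, 40.7 and 56.8 CPM and at 18.1, 45.5 and 66.8 CPM.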
